A study of Gallus gallus with 24 samples.

Results

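The G protein-coupled receptor genes of chicken abdominal fat were taken as the features of the deposited count table whose identifier begins with a receptor symbol of 1 of 19 kinds (GPR and a number, the adrenergic, serotonin, dopamine, purine and pyrimidine nucleotide, adenosine, glutamate, angiotensin, neuropeptide Y and melanocortin receptors, the latrophilins, SUCNR1 and others). This choice by name gave 100 of 17934 features. Abdominal fat was taken at 7 wk from 4 cockerels of the FL and 4 cockerels of the LL, lines of Gallus gallus divergently bred through 7 generations for a large (FL) or a small (LL) abdominal fat pad. All 8 birds were raised as standard broilers, with no other treatment, and each line is 1 selected population. One library per bird was sequenced in 3 runs, which were summed, so that the bird is the replicate. The description and protocol fields of the LL samples carry the wording of the fat line, and the line was taken from the sample title, which the source name and the line field repeat.

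G protein-coupled receptors are membrane proteins that cross the membrane in several helices, bind a hormone, transmitter, metabolite or matrix protein on the outside, and switch on heterotrimeric G proteins on the inside. The G proteins then raise or lower cyclic AMP or open the calcium and phospholipase C route, and receptor kinases, arrestins and RGS proteins end the signal. In fat tissue such receptors are known for the control of lipolysis by catecholamines, adenosine, succinate and peptide hormones in mammals, and for the tone of the vessels that run through the tissue.

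Total counts per bird were 4299772 to 10878211 in the FL and 5548867 to 12876999 in the LL. A count of 3 was taken as an approximate upper limit on the mean count of a library in which 0 is seen. Higher means are unlikely there but not impossible. This count corresponds to 0.304 to 0.686 CPM (reads per 1000000 counted reads) in the FL and 0.237 to 0.531 CPM in the LL. The 7 features of adipocyte markers summed to 14390 to 17600 CPM in the FL and 12980 to 16160 CPM in the LL, so that the defining markers of the labelled tissue were present in every bird. One library stood apart: the skeletal muscle genes MYH1, ACTA1 and TNNT3 summed to 15740 CPM in FL replicate 4 and to 73.5 to 119 CPM in the other 7 birds. Liver markers summed to 102 and 235 CPM in LL replicates 2 and 3 and to 2.83 to 9.82 CPM in the other 6 birds. Of 5 mesothelium markers, 3 had an unadjusted edgeR p under 0.05 with higher values in the LL (summed level 39.9 to 60.8 CPM in the FL and 52.7 to 103 CPM in the LL). So did 2 of 4 smooth muscle and pericyte markers, RGS5 and PDGFRB, while ACTA2 and MYH11 did not (all genes tested: 6.62%). The 4 together summed to 1332 to 1712 CPM in the FL and 1645 to 2029 CPM in the LL.

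Fat tissue gave reads for 90 of the 100 receptor features, but only 50 had enough to be tested between the lines (50%, against 62.4% of all features). A further 10 were at 0 in all 8 birds, for which the approximate limit is 3 counts per bird. They were GPR6, GPR17, GPR19, GPR22, GPR26, GPR52, GPR78, GPR143, GPR171 and HTR3A. HTR3A encodes a serotonin-gated ion channel and fits the rule by its name only. Of the others not tested, 20 had at most 3 counts in every bird, and 20 went above 3 counts in at least 1 bird. Among the members at 0, the spans of GPR17, GPR22, GPR52 and GPR171 lie inside those of LIMS2, COG5, RBG1L_CHICK and MED12L, which had reads. How reads were split there is not known, so the limit of 3 counts may not hold for these members. Among the members found by name, adhesion receptors had the highest share tested of the receptor families, with 12 of 14. These shares depend on the rule. The peptide receptors MC5R, EDNRA, EDNRB and SSTR2 and the adhesion receptors CELSR1 and GPR126 stand under other identifiers and were also tested. The peptide receptors (5 of 6) and the receptors for nucleotides, adenosine and succinate (7 of 11) followed. Families were set by name, so the peptide group counts AGTRAP, which is no receptor and was tested. The nucleotide group counts P2RY5, which the RefSeq table lists as LPAR6 and which was not tested. Amine receptors (4 of 15) and class C receptors (2 of 8), families best known from the nervous system, were mostly too low to test.

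**Figure D1:**
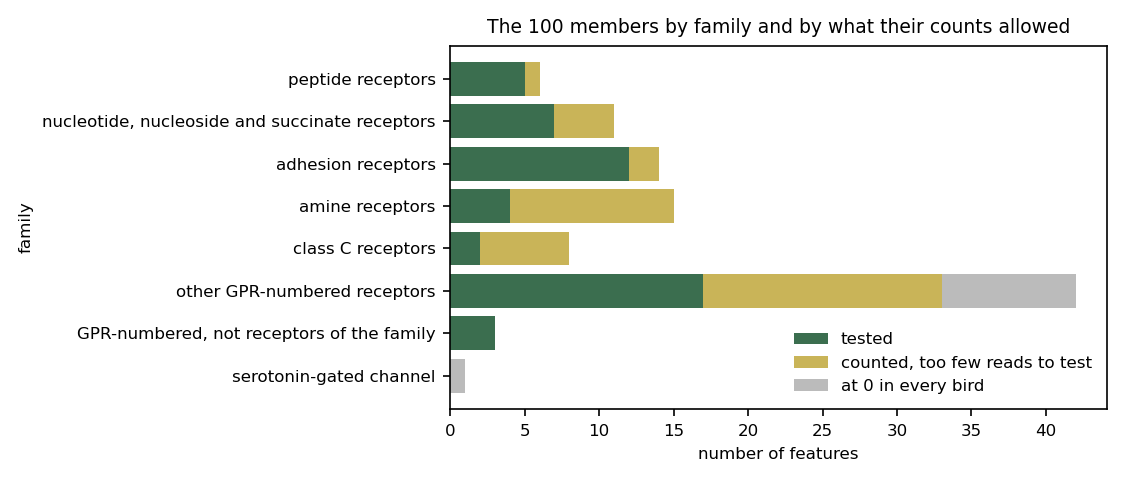
Number of features (horizontal axis) in each receptor family (vertical axis), split into those tested between the lines, those counted with too few reads to test, and those at 0 in every bird. The adhesion family had 12 of 14 members tested, and 9 of the 10 members at 0 were other GPR-numbered receptors.

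Reads were concentrated on few members. The members with most reads were LPHN3 (mean over both lines 154 CPM), GPR124 (151 CPM), GPR123 (145 CPM), GPR116 (143.6 CPM), GPR1 (142 CPM), GPR56 (122.8 CPM), LPHN2 (122 CPM), GPR153 (90.4 CPM), P2RY3 (51.9 CPM) and GPR133 (45.9 CPM), of which 7 are adhesion receptors. CPM counts reads and not reads per base of transcript, so this order is of reads and long genes are favoured in it. For the 53 members with a deposited span of at most 3000 bases a level per kilobase of span could be formed, and 21 of these were tested. GPR1, a receptor for the adipokine chemerin, led them at 96.6 CPM per kilobase of span. P2RY3 had 33.2, GPR23 (LPAR4 in the RefSeq table, a lysophosphatidic acid receptor) 26.2 and AGTRL1, the apelin receptor, 23.2 CPM per kilobase of span.

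Birds of the lines overlapped in their total of receptor reads. The 100 members summed to 1646, 1719, 1676 and 1778 CPM in FL replicates 1 to 4, against 1687, 1825, 1804 and 1632 CPM in LL replicates 1 to 4. No member was called between the lines in the quasi-likelihood test of edgeR (0 of 50 members, against 41 of 11187 genes or 0.366%). A call needs a 1.2-fold difference and a Benjamini-Hochberg adjusted p, taken over every gene tested, of no more than 0.05. The lowest edgeR adjusted p of a member was 0.149, for AGTR2. An unadjusted p under 0.05 in the same edgeR test was found for 11 members, 3 with higher values in the FL and 8 with higher values in the LL, against 13.1% of all genes tested (6.49% toward the FL, 6.62% toward the LL). Birds of the lines did not overlap in 7 members, 2 of them with the FL above and 5 with the LL above, against 8.1% of all genes tested (3.76% with the FL above, 4.34% with the LL above). For each of these 7 the two-sided exact permutation test gave p = 0.0286, the smallest that 4 birds against 4 allow. This value follows from the lack of overlap by which the 7 were picked and adds nothing to it.

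The median log2 fold change (FL/LL) of the 50 members was -0.01, beside 0.00 over all genes tested, with 24 members above 0 and 26 below. Their median absolute log2 fold change was 0.21, beside 0.16 over all genes. The median coefficient of variation over birds was 21.3% in the FL and 20.2% in the LL for members, beside 15.6% in the FL and 15.4% in the LL for all genes tested. The members had a median of 17.6 CPM, beside 24.9 CPM for all genes tested, and the part of their lower read numbers in this spread was not tested. In whole tissue, fewer cells of a type and less RNA per cell cannot be told apart in any of these values. The number of calls moved with the unit of replication and with the tool. With the 24 runs entered as if they were birds, edgeR called 10 of 38 members (26.3%, against 14.0% of all genes tested that way), 2 toward the FL and 8 toward the LL, and with DESeq2 on the 8 birds 2 of 50 members were called (4.0%, against 2.85%), AGTR2 and SUCNR1.

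**Figure D2:**
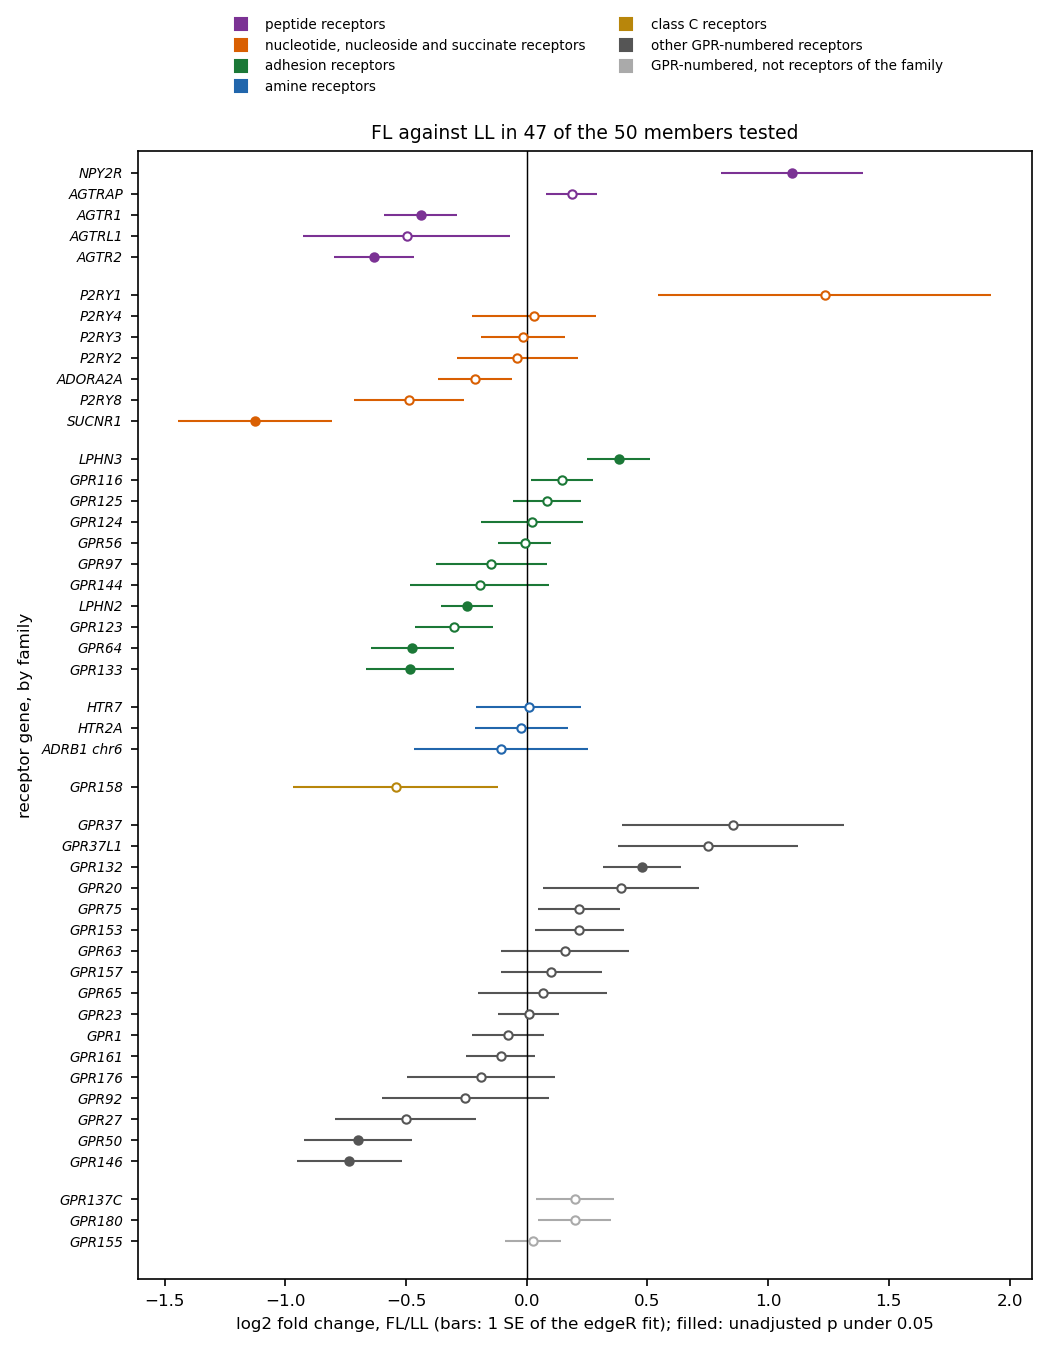
Log2 fold change, FL/LL (horizontal axis, with bars of 1 SE derived from the edgeR fit), of 47 of the 50 members tested, grouped by family (vertical axis). Filled points have an unadjusted p under 0.05, 3 to the right (higher in the FL) and 8 to the left (higher in the LL), and no member passed the adjusted threshold.

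Peptide receptors held the members with the lowest p on either side. AGTR2, the type 2 receptor of angiotensin II, which is known to oppose many actions of the type 1 receptor, lies on chromosome 4 (3001700 to 3003221, build 2.1, with the 200 bases of flank that the authors added on each side). Its reads came to 11.1, 17.2, 17.1 and 16.8 CPM in FL replicates 1 to 4, against 26.1, 24.3, 20.4 and 25.6 CPM in LL replicates 1 to 4. Every LL bird was above every FL bird, and FL replicate 1 lay apart below the rest of its line. The log2 fold change was -0.63 ± 0.16 (SE, n = 4 birds per line), with an unadjusted p of 0.0030 and an edgeR adjusted p of 0.149.

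AGTR1, the type 1 receptor, through which angiotensin II constricts vessels, had 20.1, 24.7, 24.4 and 27.6 CPM in the FL birds, against 38.6, 29.2, 27.0 and 36.5 CPM in the LL birds. Only FL replicate 4 and LL replicate 3 crossed, by under 1 CPM. Its log2 fold change was -0.44 ± 0.15 (SE, edgeR unadjusted p = 0.0151, adjusted p = 0.236). Of the smooth muscle and pericyte markers given above, RGS5 and PDGFRB ran the same way between the lines. ACTA2 (log2 fold change -0.04 ± 0.14 SE) and MYH11 (-0.01 ± 0.17 SE) were near 0. The part of such cells in the values of AGTR1 and AGTR2 was not tested.

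NPY2R, a receptor for neuropeptide Y and peptide YY that lowers cyclic AMP, had the largest log2 fold change toward the FL of the members with an unadjusted p under 0.05. It had 4.47, 5.26, 3.26 and 3.95 CPM in the FL birds, against 1.99, 1.24, 1.66 and 2.90 CPM in the LL birds, from 127 reads in the FL and 63 in the LL. The lowest FL bird stood above the highest LL bird, and the log2 fold change was 1.10 ± 0.29 (SE), a 2.14-fold difference, with an unadjusted p of 0.0036 and an edgeR adjusted p of 0.152.

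The apelin receptor AGTRL1 was the most uneven of the 5 peptide receptor members tested (coefficient of variation 55.4% in the FL and 44.9% in the LL), with 24.1, 29.7, 12.1 and 50.7 CPM in the FL birds and 16.7, 40.8, 61.2 and 45.9 CPM in the LL birds. Both lines spanned a several-fold range, and the log2 fold change of -0.50 ± 0.43 (SE) had an edgeR adjusted p of 0.682. AGTRAP, which fits the rule by its name but encodes a protein that binds the type 1 angiotensin receptor and is no receptor, was the steadiest member in the FL (coefficient of variation 4.16%) and its log2 fold change was 0.19 ± 0.11 SE, with an edgeR adjusted p of 0.492. MC1R, the melanocortin receptor of feather pigment, gave 1 read in the FL and 4 in the LL.

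**Figure D3:**
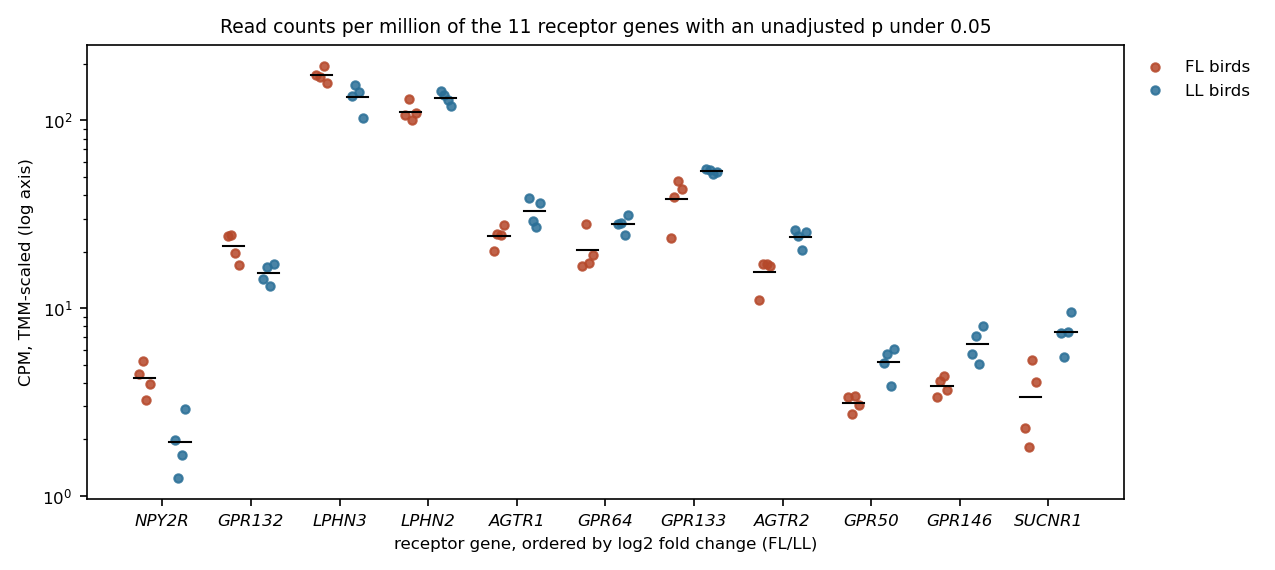
CPM after TMM scaling (vertical log axis) in each FL bird (left of each pair) and LL bird (right) for the 11 members with an unadjusted p under 0.05, ordered by log2 fold change (horizontal axis). Points are birds and lines are means; NPY2R and LPHN3 have no overlap with the FL higher, and AGTR2, SUCNR1, GPR146, GPR50 and GPR133 none with the LL higher.

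Among the receptors for nucleotides, adenosine and succinate, SUCNR1 had the lowest p. It encodes the receptor for succinate, an intermediate of the citric acid cycle, and lies on chromosome 9 (25011541 to 25012864). Its values were 2.29, 1.83, 5.29 and 4.06 CPM in the FL birds, against 7.40, 5.49, 7.51 and 9.53 CPM in the LL birds. The highest FL bird came close below the lowest LL bird without reaching it. The log2 fold change was -1.12 ± 0.32 (SE), 2.18-fold lower in the FL, with an unadjusted p of 0.0051 and an edgeR adjusted p of 0.164.

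SUCNR1 belongs to a row of related receptor genes on chromosome 9, and most of that row had few or no reads. P2RY12, P2RY13, P2RY14 and GPR171, which follow it within the span of MED12L, had 8 reads together over all 8 birds, and none of them had more than 2 in a bird. MED12L itself averaged 18.6 ± 1.48 CPM in the FL and 18.2 ± 3.65 CPM in the LL (SD), so the split of reads is uncertain. Per kilobase of span, SUCNR1 reached 1.38 to 4.00 CPM in the FL and 4.15 to 7.196 CPM in the LL, while none of the 4 exceeded 0.166 CPM in the FL and 0.202 CPM in the LL. P2RY12 is known in mammals as the ADP receptor of platelets and microglia.

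**Figure D4:**
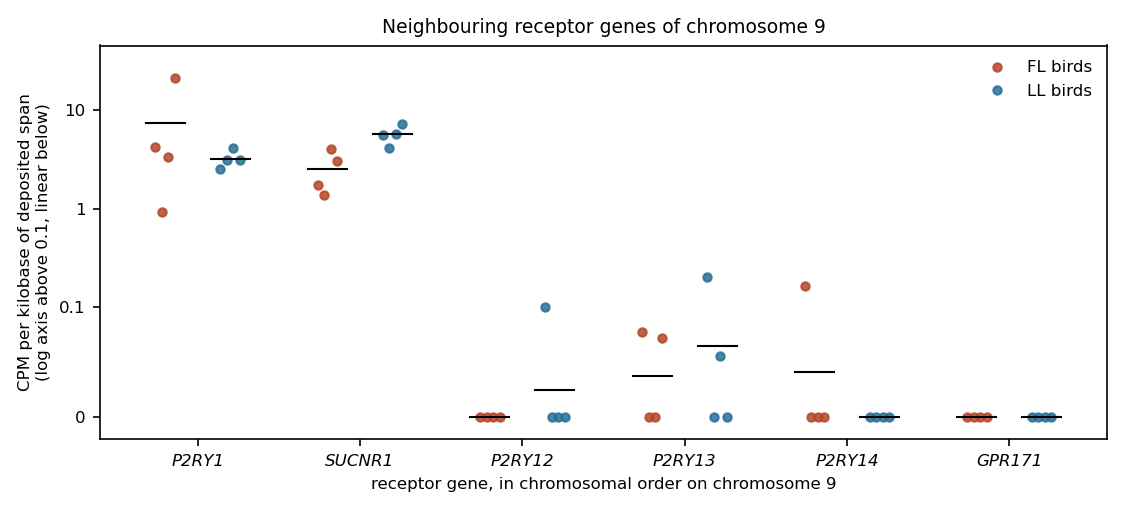
CPM per kilobase of deposited span (vertical axis, logarithmic above 0.1) in FL birds (left of each pair) and LL birds (right) for 6 receptor genes in their order on chromosome 9 (horizontal axis). P2RY1 and SUCNR1 were counted in every bird, the 4 genes after them gave at most 2 reads each in a bird, and 1 FL bird stands far above the others in P2RY1.

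P2RY1, the ADP receptor at the other end of the row, had the largest log2 fold change of any member tested, 1.23 ± 0.69 (SE, edgeR unadjusted p = 0.103, adjusted p = 0.484), and it came from 1 bird. The values were 6.21, 1.37, 4.88 and 31.1 CPM in the FL birds, against 3.70, 4.61, 6.09 and 4.56 CPM in the LL birds. FL replicate 4 was high in each of its 3 runs (29.8, 25.0 and 26.5 CPM before TMM scaling), and it is the bird with the skeletal muscle transcripts described above. Without it the log2 fold change was -0.13 (edgeR adjusted p = 0.918). The part of the muscle transcripts in the value of P2RY1 was not tested.

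**Figure D5:**
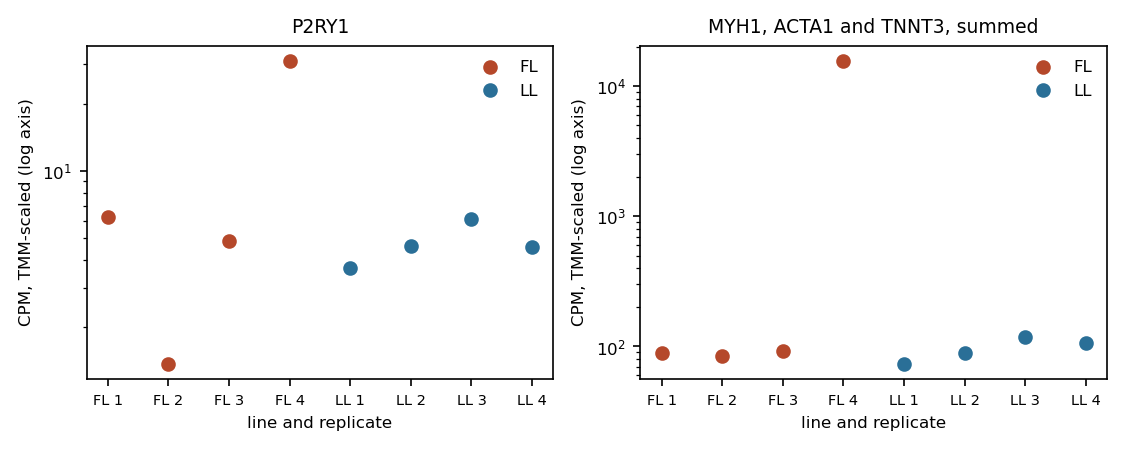
CPM after TMM scaling (vertical log axes) of P2RY1 (left panel) and of MYH1, ACTA1 and TNNT3 summed (right panel) in each bird (horizontal axis, FL then LL). FL replicate 4 is highest in both panels, with 31.1 CPM of P2RY1 and 15740 CPM of the muscle genes.

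P2RY3, known from the chicken as a receptor for uridine nucleotides, had the most reads of the family, with 48.5, 46.7, 49.4 and 62.2 CPM in the FL birds and 36.0, 49.6, 63.9 and 59.2 CPM in the LL birds. The lines overlapped throughout (log2 fold change -0.01 ± 0.17 SE, edgeR adjusted p = 0.985). Its neighbour P2RY2, a receptor for ATP and UTP, averaged 9.70 ± 3.55 CPM in the FL and 10.02 ± 1.52 CPM in the LL (SD, n = 4 each), while P2RY4 averaged 9.09 ± 2.20 CPM in the FL and 9.03 ± 2.93 CPM in the LL. ADORA2A, an adenosine receptor that raises cyclic AMP, averaged 12.8 ± 2.12 CPM in the FL and 15.0 ± 1.05 CPM in the LL, with an edgeR adjusted p of 0.602.

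P2RY8, known in human as a receptor that holds B cells in germinal centres, had 21.3, 12.1, 12.2 and 10.04 CPM in the FL birds, against 17.1, 21.4, 17.6 and 22.5 CPM in the LL birds. FL replicates 2 to 4 lay below all LL birds, and FL replicate 1 lay among the LL birds (log2 fold change -0.49 ± 0.23 SE, edgeR unadjusted p = 0.0560, adjusted p = 0.393). P2RY5, which the RefSeq table lists as LPAR6, gave 3 reads in the FL and 5 in the LL. Its span lies inside that of RB_CHICK, and the split of reads there is uncertain.

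Adhesion receptors carry long extracellular parts that touch matrix or neighbouring cells. LPHN3, a latrophilin that binds teneurins and FLRT proteins, is known from nerve cells and had 174, 170, 194 and 157.5 CPM in the FL birds, against 134, 154.7, 142 and 103 CPM in the LL birds. Each FL bird was above each LL bird, although FL replicate 4 and LL replicate 2 were close. The log2 fold change was 0.38 ± 0.13 (SE, edgeR unadjusted p = 0.0152, adjusted p = 0.236).

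LPHN2, its relative, ran the other way, with 106.5, 130.1, 99.96 and 109 CPM in the FL birds and 143, 137, 129 and 120 CPM in the LL birds. FL replicate 2 lay within the range of the LL and the other 3 FL birds below it (log2 fold change -0.25 ± 0.11 SE, edgeR unadjusted p = 0.0449, adjusted p = 0.365). The difference between the genes in their fold change was not tested.

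GPR133, an adhesion receptor that raises cyclic AMP, had 23.8, 38.9, 47.3 and 43.2 CPM in the FL birds, against 54.8, 54.2, 51.9 and 53.0 CPM in the LL birds. The LL birds lay within 3 CPM of each other, all above the FL birds (log2 fold change -0.48 ± 0.18 SE, edgeR unadjusted p = 0.0229, adjusted p = 0.280). The whole span of GPR133 lies inside that of another feature, Q5ZMT6_CHICK, which averaged 40.4 ± 5.77 CPM in the FL and 42.4 ± 10.3 CPM in the LL, so that the split of reads between both is uncertain.

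GPR64, known in mammals from the epididymis, had 16.8, 28.1, 17.4 and 19.3 CPM in the FL birds, against 28.2, 28.4, 24.5 and 31.4 CPM in the LL birds. FL replicate 2 lay among the LL birds and the other 3 below all of them (log2 fold change -0.48 ± 0.17 SE, edgeR unadjusted p = 0.0192, adjusted p = 0.263). GPR123, an orphan relative of GPR124, had 141, 129, 134 and 117 CPM in the FL birds and 215, 159, 150 and 118 CPM in the LL birds. LL replicate 1 was far above and LL replicate 4 within the FL range (log2 fold change -0.30 ± 0.16 SE, edgeR adjusted p = 0.459).

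Other adhesion receptors with many reads had overlapping birds. GPR124, which serves Wnt signalling in brain vessels of the mouse, had 136, 146, 146 and 182 CPM in the FL birds and 94.0, 173, 204 and 129 CPM in the LL birds, the wider range being that of the LL (log2 fold change 0.02 ± 0.21 SE, edgeR adjusted p = 0.981). GPR116, known from lung epithelium and endothelium, had 150.1, 148, 172 and 134 CPM in the FL birds and 154.5, 154, 123.1 and 114 CPM in the LL birds (0.15 ± 0.13; adjusted p = 0.684 in edgeR). GPR56, a receptor for collagen and transglutaminase, had 139, 102, 122.3 and 125.5 CPM in the FL birds and 123.2, 135, 121 and 114 CPM in the LL birds (-0.01 ± 0.11; adjusted p = 0.987 in edgeR).

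GPR97, a relative of GPR56 that lies near it on chromosome 11 and is known from leukocytes in mammals, had few reads. It averaged 4.00 ± 0.96 CPM in the FL and 4.49 ± 0.57 CPM in the LL (SD, n = 4 each), and birds of the lines overlapped (edgeR adjusted p = 0.848). GPR125 and GPR144 also overlapped, and GPR98 (19 reads in the FL, 13 in the LL) and GPR112 (5 in the FL, 2 in the LL) were not tested.

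Amine receptors answer catecholamines, serotonin and dopamine. HTR2A, a serotonin receptor that works through phospholipase C, had 25.9, 32.5, 17.1 and 25.9 CPM in the FL birds and 32.0, 23.2, 24.6 and 22.7 CPM in the LL birds. The lines overlapped fully (log2 fold change -0.02 ± 0.19 SE, edgeR adjusted p = 0.978). For HTR7, a serotonin receptor that raises cyclic AMP, the edgeR adjusted p was 0.995.

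The table holds ADRB1, a beta adrenergic receptor, at both chromosome 6 (29114922 to 29116539) and chromosome 22 (2278173 to 2279709). The feature of chromosome 6 averaged 5.09 ± 0.84 CPM in the FL and 5.35 ± 3.12 CPM in the LL (SD, n = 4 each, edgeR adjusted p = 0.936), and that of chromosome 22 gave 29 reads in the FL and 27 in the LL, too few to test. On chromosome 22 GPR124 lies close by, and in the RefSeq gene table, which is of another assembly, the beta adrenergic gene near it is ADRB3; whether the feature is ADRB3 was not tested. A further 10 amine receptors had 37 reads or fewer in the FL and 44 or fewer in the LL, among them HTR1D (25 reads in the FL, 44 in the LL), the alpha adrenergic ADRA1D (37 in the FL, 33 in the LL) and the dopamine receptor DRD5 (30 in the FL, 18 in the LL).

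Class C receptors bind their ligand in a large outer domain, and glutamate is the best known of them. GPR158, known in mouse brain as a partner of RGS proteins, averaged 1.025 ± 0.35 CPM in the FL and 1.48 ± 0.63 CPM in the LL (SD, n = 4 each), and the edgeR fit gave a log2 fold change of -0.54 ± 0.42 SE with an adjusted p of 0.641. The glutamate receptor GRM8 gave 1, 0, 0 and 1 reads in FL replicates 1 to 4, against 1, 1, 6 and 6 reads in LL replicates 1 to 4, and was not tested. More than 3 reads were found in LL replicates 3 and 4 only.

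Of the other GPR-numbered receptors, GPR146 and GPR50 had LL birds that were all above the FL birds. GPR146, an orphan receptor tied in mice to plasma cholesterol, lies on chromosome 14 (2337393 to 2338794) and had 3.38, 4.12, 4.34 and 3.65 CPM in the FL birds, against 5.70, 7.09, 5.06 and 8.01 CPM in the LL birds. The FL birds were close together and the LL birds spread wider above them (log2 fold change -0.74 ± 0.22 SE, edgeR unadjusted p = 0.0065, adjusted p = 0.180).

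GPR50, which the RefSeq table also calls Mel1c, a melatonin receptor of birds, had 3.38, 2.74, 3.39 and 3.04 CPM in the FL birds, against 5.13, 5.67, 3.87 and 6.08 CPM in the LL birds. LL replicate 3 came nearest to the FL without reaching it (log2 fold change -0.70 ± 0.22 SE, edgeR unadjusted p = 0.0098, adjusted p = 0.203).

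GPR132, a receptor of immune cells related to the acid sensors, had 24.2, 24.5, 19.7 and 16.9 CPM in the FL birds, against 14.2, 16.7, 13.2 and 17.1 CPM in the LL birds. Only FL replicate 4 fell short of the highest LL bird (log2 fold change 0.48 ± 0.16 SE, edgeR unadjusted p = 0.0130, adjusted p = 0.229). Its relative GPR65, an acid sensor of lymphocytes, averaged 6.34 ± 1.88 CPM in the FL and 6.10 ± 1.62 CPM in the LL (SD, n = 4 each, edgeR adjusted p = 0.947). Markers of T and B cells summed to 51.1 to 74.5 CPM in the FL and 39.99 to 89.6 CPM in the LL. Those of macrophages summed to 6007 to 6855 CPM in the FL and 4879 to 7338 CPM in the LL, mostly from CD74 (mean 5540 CPM in the FL and 4945 CPM in the LL). CSF1R was higher in every FL bird (661 ± 41.4 CPM against 582 ± 28.4 CPM in the LL, SD, edgeR adjusted p = 0.441). MARCO ran the other way, with 14.7 ± 20.3 CPM in the FL and 46.0 ± 29.0 CPM in the LL (SD) and overlapping birds. Its log2 fold change was -1.77 ± 0.78 (SE, edgeR unadjusted p = 0.0445, adjusted p = 0.364), and it was the only macrophage marker with an unadjusted p under 0.05. CTSS and LY86 had higher FL means with overlapping birds. The part of such cells in the values of GPR132 was not tested.

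GPR1, the chemerin receptor named above, had 109, 181, 137 and 127 CPM in the FL birds and 150.1, 134, 137 and 162 CPM in the LL birds (log2 fold change -0.08 ± 0.15 SE, edgeR adjusted p = 0.880). GPR153, an orphan, had 91.6, 103, 78.1 and 116.2 CPM in the FL birds and 65.5, 97.1, 106 and 65.5 CPM in the LL birds (0.22 ± 0.18; adjusted p = 0.678 in edgeR). Birds of the lines overlapped in both genes. GPR37 and GPR37L1, a pair of related receptors known from glia, had log2 fold changes of 0.85 ± 0.46 (GPR37) and 0.75 ± 0.37 (GPR37L1; SE), with edgeR adjusted p of 0.461 for GPR37 and 0.420 for GPR37L1. GPR37 averaged 2.09 ± 1.10 CPM in the FL and 1.28 ± 0.54 CPM in the LL (SD), from 108 reads over all birds. Of the 42 features in this group, 17 were tested, 10 of them with a log2 fold change above 0 and 7 below.

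GPR137C, GPR155 and GPR180 carry GPR numbers without being typical receptors of this kind, and all 3 were tested. GPR155, known in mammals as a sensor of cholesterol on lysosomes, had 28.0, 22.6, 25.9 and 27.4 CPM in the FL birds and 27.1, 27.5, 23.1 and 25.1 CPM in the LL birds. The lines overlapped (log2 fold change 0.02 ± 0.12 SE, edgeR adjusted p = 0.957). GPR137C had the largest absolute log2 fold change of the 3, 0.20 ± 0.16 (SE, edgeR adjusted p = 0.657). It averaged 22.65 ± 2.36 CPM in the FL and 19.83 ± 4.11 CPM in the LL (SD).

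For the signalling machinery behind the receptors no gene was called, against 0.366% of all genes tested. The counts that follow stand beside 13.1% of all genes tested with an unadjusted edgeR p under 0.05 (6.49% toward the FL, 6.62% toward the LL). They are given as description, and no difference of these lists from that share was tested. Of 20 features of G protein subunits, 16 were tested, and 2 had an unadjusted edgeR p under 0.05, GNB3 and GNG2, both higher in the LL. Of 14 RGS features 8 were tested, with RGS5 and RGS9 higher in the LL at that level. Of 18 effector features (adenylyl cyclases, phospholipases C, protein kinase A subunits and phosphodiesterases) 15 were tested, with PLCB4 and PDE3A higher in the LL. None of the 4 receptor kinases and 2 RAMP features tested had an unadjusted edgeR p under 0.05.

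Another 15 receptors of the same families could be found in the table under protein identifiers or older names, outside the rule by name. Their names came from the RefSeq table and from the study's gene lists, its list of differentially expressed genes among them. The 15 are therefore not a complete set and may favour genes that differed in these same data. Their counts are no support for a difference between the lines. Of these 11 were tested and 0 were called, with 3 at an unadjusted edgeR p under 0.05 toward the FL and 3 toward the LL. Of all genes tested, 0.366% were called, and 6.49% were at that p toward the FL and 6.62% toward the LL. Birds of the lines did not overlap in 8.1% of all genes tested. The melanocortin receptor MC5R had the lowest p, with 35.4, 21.7, 23.3 and 17.3 CPM in the FL birds, against 7.69, 12.8, 9.01 and 12.7 CPM in the LL birds (log2 fold change 1.23 ± 0.25 SE, edgeR adjusted p = 0.0705). All FL birds were above all LL birds, as they were for EDNRB, an endothelin receptor (0.69 ± 0.19; adjusted p = 0.153 in edgeR). LL birds were all above FL birds in CELSR1, an adhesion receptor of planar cell polarity (-0.89 ± 0.22; adjusted p = 0.135 in edgeR), GPR126 (-0.54 ± 0.16; adjusted p = 0.178) and LPAR1 (-0.54 ± 0.18; adjusted p = 0.217). SSTR2, a somatostatin receptor, (log2 fold change 0.39 ± 0.16 SE, edgeR adjusted p = 0.322) averaged 1198 ± 172 CPM in the FL and 915 ± 182 CPM in the LL (SD, n = 4 each), with LL replicate 3 inside the range of the FL.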

How the data were processed

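The authors mapped trimmed paired-end reads of 101 bp with CLC Genomics Workbench 5.1 to chicken build 2.1 and Ensembl release 64, with 200 bases of flank on either side of a gene, and dropped reads with more than 1 match (CASAVA 1.8.2 stands in the submitters' processing notes). The deposited counts are unique exon reads per gene and run, not normalized, and the counting strand is not given in the sources used here. By the account of the paper, the first run of FL replicate 4 and LL replicate 3 was alone in a lane (Scheme B), that of the other birds shared one (Scheme A), and runs 2 and 3 pooled all 8 libraries (Scheme C). The labels give another order of schemes, RNA extraction and kit. Runs 2 and 3 of a bird differed by sampling noise (chi-square per degree of freedom 0.982 to 1.02). Run 1 differed from runs 2 and 3 of the same bird by more than sampling noise (1.96 to 10.7), and birds of a line differed by 8.84 to 56.1. The table's other columns, gene positions apart, hold the authors' normalized values, means, fold changes and p-values and were not used.

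Counts were summed per bird, filtered with filterByExpr, scaled with TMM and tested with glmQLFit and glmQLFTest of edgeR 4.0.16 in R 4.3.3, with line as the only term, and p was adjusted by Benjamini-Hochberg over every gene tested. The script was tested on simulated data. In its sequencing comparison the study tested 12 runs against 12, so runs as replicates were an alternative. The study also measured AGTR1, AGTR2, NPY2R, MC5R and SSTR2, among others, by quantitative RT-PCR in birds of both lines. Those measurements are not compared here. Others were DESeq2 1.42.0, total-count scaling, no filter, at least 10 counts in every bird, runs 2 and 3 or run 1 only, robust=TRUE, omission of each bird in turn, the replicate number as a block and, added after the data were seen, omission of both Scheme B birds. Values of all birds are given for members with an unadjusted p under 0.05, those the study names, the 10 with most reads and the one with most reads in each family (HTR3A, alone in its family, was at 0), and values of the lines for the largest fold change per family. A further 4 members are counted but not reported by name here. P2RY1 was given by bird after its values were seen. Members and lists were chosen with earlier results of these data known. The spans of 16 members overlap another feature, 4 of them tested (GPR133, GPR144, GPR180 and LPHN3). Limits from a count of 0 cover counting error only. Figures were drawn with matplotlib 3.10.9.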

Additional observations from a re-analysis of the deposited data

Results flagged for a closer look

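P2RY1 in FL replicate 4 stood at 31.13 CPM, apart from the 1.37 to 6.21 CPM of the other FL birds, and was flagged by the gap of 1 bird to its line (Dixon's test at the 95% level). AGTR2 in FL replicate 1, at 11.12 CPM, was flagged in the same way below the 16.8 to 17.2 CPM of the other FL birds. Chance flags about 1 in 20 groups, and 58 line values were checked. Without FL replicate 1 the log2 fold change of AGTR2 was -0.49, the value nearest to 0 of the fits without 1 bird. Those fits ranged from -0.71 to -0.49, with edgeR adjusted p of 0.129 to 0.308. The FL birds lay below the LL birds with all birds kept, so leaving FL replicate 1 out could hardly change that.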

How the results depend on the processing

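No member was called under 17 of 19 alternatives to the main edgeR fit, most of them edgeR fits as well. The exceptions were DESeq2, with 2 calls (2.85% of all genes), and the 24 runs as replicates, with 10 (14.0%). Where no member was called, few genes of any kind were, from 0.00976% (run 1 only) to 1.26% (runs 2 and 3 only). Dropping the fold threshold was among the 17 and could add no call, as the lowest edgeR adjusted p of a member was 0.1485. Members with an unadjusted p under 0.05 and higher in the FL numbered 3 to 5 with 1 bird left out, those higher in the LL 6 to 10, and members with no overlap 7 to 12. FL replicate 4 gave the highest of the last 2 counts when left out, and FL replicate 2 the highest of the first. The shares of all genes moved too: without FL replicate 4, 14.6% had an unadjusted p under 0.05, in either direction, and 13.9% did not overlap, beside 13.1% and 8.1% with all birds. These were the highest shares with 1 bird left out. The lowest were 10.5% for the unadjusted p and 10.5% for no overlap, both without LL replicate 2. Members with no overlap were 3 of 45 with runs 2 and 3 only (9.47% of all genes) and 13 of 49 without the Scheme B birds, when 3 birds face 3 (18.8% of all genes). The median log2 fold change lay between -0.097 (without FL replicate 4) and 0.024 over the fits without 1 bird; with total-count scaling it was -0.07, and the median of all genes moved to -0.06. The 11 members with an unadjusted p under 0.05 kept their sign under every alternative that gave them a value, runs 2 and 3 only and run 1 only included. The alternatives use the birds and runs by which these 11 were picked, so the kept signs are no separate support. Signs turned for GPR155 (-0.036 with total counts, -0.052 without the Scheme B birds, -0.027 to 0.082 with 1 bird left out), GPR124 (-0.031 with total counts, -0.016 with 24 runs, -0.023 with runs 2 and 3; -0.14 to 0.21), HTR2A (0.077 with run 1; -0.15 to 0.13), P2RY3 (0.0023 with runs 2 and 3; -0.15 to 0.10), GPR56 (-0.071 to 0.067), GPR1 (-0.23 to 0.024) and P2RY1 (-0.13 to 1.56), and the cause was not tested. With the replicate number as a block, 0 members were called, 4 were at an unadjusted p under 0.05 and higher in the FL, 8 higher in the LL, the median was 0.01 and P2RY3 turned to 0.0075. No pairing of the birds by number was seen: same-numbered birds correlated at -0.115 to 0.229, and 1 of 4 FL birds correlated best with its own number. With so few birds this check cannot exclude a pairing. At 4299772 to 12876999 counts per bird, the 50 members not tested allow no statement on the lines.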
